A study of Mus musculus with 2 samples.

Results

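Mir155, Mir146 and Mir146b are the mouse genes of miR-155, miR-146a and miR-146b, microRNAs known for their induction in inflammation. They were taken by gene symbol from the annotation that the count tables use (GENCODE M21), and no measured value entered the choice: 3 of the 2202 microRNA genes were chosen by name. MicroRNA-seq had been done on heart tissue of female B6CASTF1/J mice, hybrids of C57BL/6J and CAST/EiJ, at an age of 18 to 20 months. Both samples fell into 1 group, for which the labels name no treatment. They are numbered there as biological replicates 1 and 2, with a tissue record each and a donor record in common. Nothing states that they came from separate animals, so the spread between them may be technical in part. There was no young, inflamed or treated group, so induction itself was not measured, and what can be described is the level of each microRNA in aged heart and its spread over the 2 libraries.

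As background, a microRNA gene is transcribed into a precursor that folds into a hairpin, from which a 5p and a 3p arm can be cut as mature microRNAs. Bases 2 to 8 of the mature strand, the seed, pair with target messenger RNAs. Transcription of miR-155 and of miR-146a rises when Toll-like receptors or cytokines activate the transcription factor NF-kB, in macrophages and lymphocytes above all. miR-155 is known to lower brakes on immune signalling such as Socs1 and Inpp5d, while miR-146a lowers Traf6 and Irak1, signalling proteins upstream of NF-kB, and so acts as negative feedback. In the heart, miR-155 has been studied mainly in infiltrating macrophages.

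The seeds show which of the 3 genes have arms that could pair with the same target sites. The 6 mature arms, from RefSeq (GRCm38.p6, the assembly of mm10), are given 5′ to 3′ with the seed in capitals.
miR-155-5p: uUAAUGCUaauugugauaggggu
miR-155-3p: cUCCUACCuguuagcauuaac
miR-146a-5p: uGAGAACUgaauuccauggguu
miR-146a-3p: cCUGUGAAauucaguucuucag
miR-146b-5p: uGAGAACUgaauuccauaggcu
miR-146b-3p: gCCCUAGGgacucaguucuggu
Only miR-146a-5p and miR-146b-5p had a seed in common, and among the 1679 named mature mouse microRNAs of that table no other carried it. The seeds of both miR-155 arms and of both miR-146 3p arms were each found in 1 microRNA alone.

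Whether a read can be assigned to Mir146 or to Mir146b depends on the bases in which their 5p arms differ, which are in capitals here.
miR-146a-5p, differences: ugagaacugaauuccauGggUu
miR-146b-5p, differences: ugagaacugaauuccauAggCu
With miR-146a-5p as the reference and positions counted from 1 at the 5′ end, these are the substitutions G18A and U21C. The first 17 bases of both arms are the same, so a read has to reach base 18 to tell the genes apart, and a shorter 5p read would enter no gene count if it mapped to more than 1 place.

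The hairpins put these arms in context, with the mature arms in capitals.
Mir155: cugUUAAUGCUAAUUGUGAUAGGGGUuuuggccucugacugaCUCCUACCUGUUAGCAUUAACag
Mir146: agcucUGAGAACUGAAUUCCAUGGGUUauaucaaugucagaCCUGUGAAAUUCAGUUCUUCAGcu
Mir146b: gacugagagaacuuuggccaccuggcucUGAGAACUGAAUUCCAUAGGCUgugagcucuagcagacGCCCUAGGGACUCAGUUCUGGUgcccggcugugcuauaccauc
Mir146 and Mir146b have a run of 21 nt in common, from base 2 to base 22 of the Mir146 hairpin, which takes in 4 bases before the 5p arm and the first 17 of the arm. The next closest of the 2202 hairpins had 11 nt in common with either. Mir155 had at most 13 nt in common with any other hairpin, and each of its arms at most 9 nt. The miR-146a-3p and miR-146b-3p arms had at most 10 nt in common with any other hairpin.

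**Figure D1:**
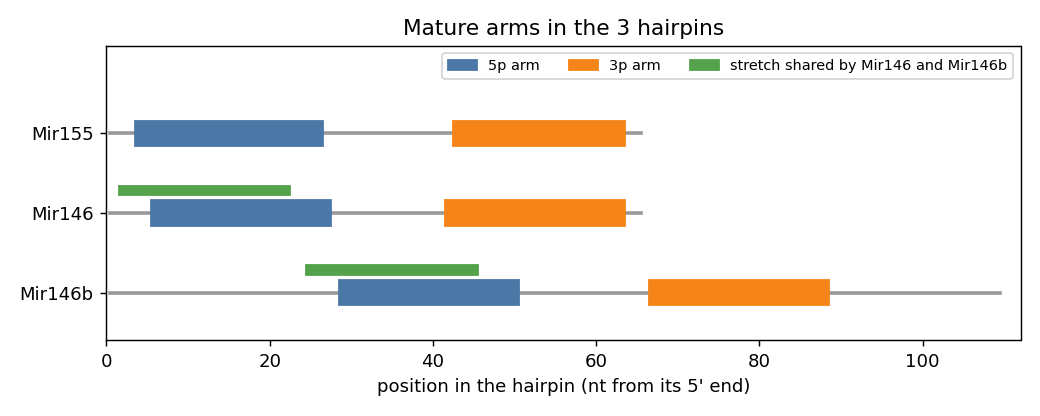
Map of the 3 hairpins, with the position from the 5′ end in nucleotides on the horizontal axis, the mature arms as blue (5p) and orange (3p) boxes and the run shared by Mir146 and Mir146b in green. The shared run covers 17 of the 22 bases of both 5p arms, and Mir155 has no shared run of 20 nt or more.

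The genes lie on 3 chromosomes in mm10. Mir155 (ENSMUSG00000065397.1, chr16:84714140-84714204, plus strand) lies within an exon of Mir155hg, a long noncoding RNA gene on the same strand (exon at 84714053 to 84715245, in 2 of its 2 transcripts). Mir146 (ENSMUSG00000065601.1, chr11:43374397-43374461, minus strand) overlaps no other annotated gene, and its nearest neighbour is the noncoding Gm12148, 11020 bp away on the other strand. Mir146b (ENSMUSG00000070127.2, chr19:46342762-46342870, plus strand) lies in an intron of Mfsd13a on the same strand, in 1 of the 5 transcripts of that gene, the only one that spans it. Nfkb2, which encodes an NF-kB subunit, ends 30376 bp before Mir146b on the same strand.

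Depth was similar in both libraries. Replicate 1 held 9362013 reads, of which 3383676 were counted as sense reads of microRNA genes, and replicate 2 held 10549508 reads with 3676084 such counts. Reads that mapped to several places, 43.9% and 43.2% of the reads, entered no gene count. Values are counts per 1000000 sense gene counts (CPM), with mean ± SD over n = 2 libraries. Genes with at least 10 counts in both libraries were called detected, 316 of 2202 in all. A count of 0 would allow up to 0.887 and 0.816 CPM in replicates 1 and 2. Intervals cover counting error only and treat reads as independent. Amplified reads without molecular identifiers are not independent molecules, so intervals and tests may understate the error. The cardiomyocyte genes Mir208a, Mir208b and Mir499, of which 3 of 3 were detected, summed to 5624 and 4831 CPM in replicates 1 and 2. Most of this came from Mir499 (3977 and 3567 CPM) and Mir208a (1588 and 1247 CPM), while Mir208b had 59.1 and 17.1 CPM. Detection alone is no test of the heart label, since the liver gene Mir122 was detected too, at 23.9 and 17.1 CPM. All 6 neuronal genes of the list (Mir124a and Mir9 loci) have a run of 20 nt or more in common with another hairpin, so their counts, 0 in both libraries for 5 of them, are no measure of these microRNAs.

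Mir155 had the highest counts of the 3 genes. It had 14436 counts in replicate 1, or 4266 CPM (Wilson 95% interval 4197 to 4336), and 17945 counts in replicate 2, or 4882 CPM (4811 to 4953). The libraries thus lay close together, at 4574 ± 435 CPM (n = 2), a coefficient of variation of 9.51%. Among counts of reads that mapped to 1 place, Mir155 held rank 29 of 2202 by mean, rank 29 in replicate 1 and rank 30 in replicate 2. MicroRNAs encoded at several places can be missing above it, since their reads are not counted. Its neighbours in this order were Mir150 above, at 5041 ± 3813 CPM, and Mir145a below, at 4564 ± 3555 CPM (n = 2 each), and neither differed from it beyond its own spread.

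Mir146, the miR-146a gene, was lower. Its 4499 counts in replicate 1 came to 1330 CPM (Wilson 95% interval 1291 to 1369), and its 7718 counts in replicate 2 came to 2100 CPM (2053 to 2147). The mean was 1715 ± 544 CPM (n = 2), a coefficient of variation of 31.8%, with replicate 2 the higher. By mean it ranked 50 of 2202, but 57 in replicate 1 and 41 in replicate 2. Mir98 above it (1730 ± 35.3 CPM) and Mir130a below it (1696 ± 407 CPM) lay within its spread (n = 2 each).

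Mir146b was barely counted. Replicate 1 held 2 counts (exact Poisson 95% interval 0.242 to 7.22) and replicate 2 held 5 counts (1.62 to 11.7), or 0.591 CPM and 1.36 CPM. The mean of 0.976 ± 0.544 CPM (n = 2) lies close to what 3 counts amount to, and Mir146b did not reach the 10 counts set for detection. Of all 2202 genes, 1494 had 0 counts in both libraries, so Mir146b stood among the genes with a few reads rather than among those with none. Its low count does not depend on the strand that was counted.

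**Figure D2:**
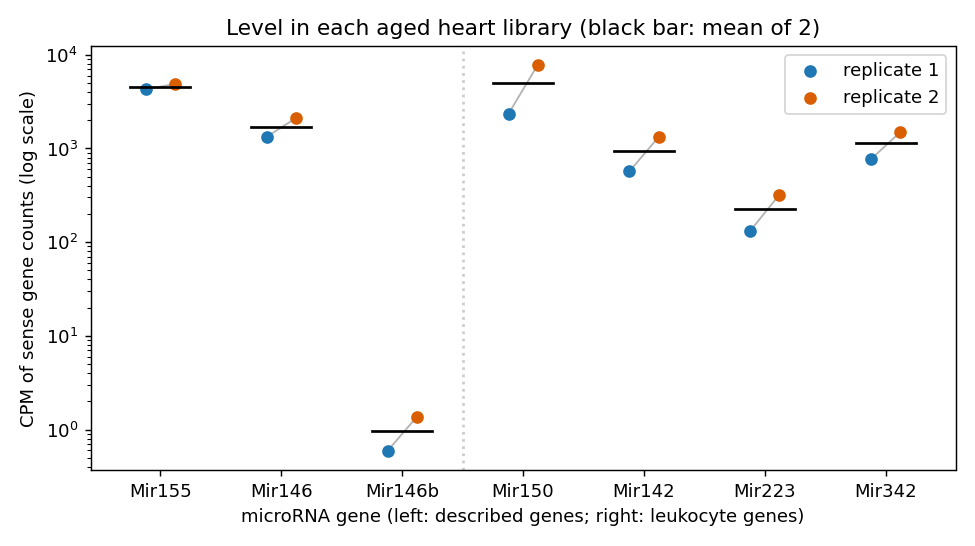
CPM (log scale) of Mir155, Mir146 and Mir146b and, right of the dotted line, of 4 leukocyte genes, with replicate 1 in blue, replicate 2 in orange and the mean as a black bar. Mir155 and Mir146 lie above 1000 CPM in both libraries and Mir146b near 1 CPM.

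In both libraries the order was Mir155, Mir146, Mir146b, and the ranges of the 3 genes did not overlap. Together they took 0.560% of the sense gene counts of replicate 1 (Wilson 95% interval 0.552 to 0.568) and 0.698% of those of replicate 2 (0.690 to 0.707), with a mean of 0.629% ± 0.0980 (n = 2). Mir155 made up 73.1% ± 4.47 of that sum and Mir146 26.9% ± 4.46. The hairpins of Mir155 and Mir146 have the same length of 65 nt, so their ratio is the same per hairpin nucleotide. The count of Mir155 divided by that of Mir146 was 3.21 in replicate 1 (exact 95% interval 3.103 to 3.32) and 2.33 in replicate 2 (2.26 to 2.39). The second ratio was 0.725 of the first (exact 95% interval 0.694 to 0.756), so the proportion of their counts differed between the 2 libraries beyond counting error.

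The paralogs that carry 1 seed were thus counted at very unequal levels. The count of Mir146 divided by that of Mir146b was 2250 in replicate 1 (exact 95% interval 622 to 18581) and 1544 in replicate 2 (661 to 4755). The ratios rest on 2 and 5 counts of Mir146b, and the interval of their own ratio (0.0653 to 4.19) includes no change between the libraries. Per hairpin nucleotide the factors were 3772 and 2589, because the annotated Mir146b hairpin is longer, at 109 nt. The mature arms of both genes are 22 nt long, so these factors reflect the annotation and are no correction of the counts. Since the table counts hairpins, the 5p and 3p arms of either gene were not separated.

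No read was counted on the antisense strand of any of the 3 genes, and their counts were the same whether reads on either strand or on the sense strand were counted. Counts did not differ between those columns for 272 of the 316 detected genes, and 285 had an antisense count of 0 in both libraries. Mir142, a microRNA of blood cells, is a case where strand matters: its 1930 and 4862 sense counts are absent from the column for either strand, where Mir142b overlaps it.

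Between the libraries, Mir155 differed little and Mir146 moderately. After scaling by TMM (edgeR's trimmed mean of M values), Mir155 was 1.05 times as high in replicate 2 as in replicate 1 (exact 95% interval 1.03 to 1.07), a log2 ratio of 0.07. Mir146 was 1.45 times as high (1.40 to 1.504), a log2 ratio of 0.54. An exact binomial test per gene against counting noise, adjusted by Benjamini-Hochberg over 316 genes, called both higher in replicate 2 at 0.05 (adjusted p = 2.87e-05 for Mir155 and 1.55e-88 for Mir146). It called 60.4% of all detected genes, 33.2% as higher in replicate 2 and 27.2% as higher in replicate 1, and a call from it says only that 2 libraries differ beyond counting error, not that conditions do. The call of Mir155 is lost with DESeq2 size factors (log2 ratio 0.016, adjusted p = 0.413 by the exact binomial test) and when only genes with 100 counts or more are used (0.028, adjusted p = 0.113).

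A difference of 2-fold or more was found in 22.2% of the 316 genes, 10.4% higher in replicate 2 and 11.7% higher in replicate 1, and in neither Mir155 nor Mir146. The size of the log2 ratio was smaller than that of Mir155 in 35 of 316 genes, and smaller than that of Mir146 in 179. In the order of log2 ratios, which scaling does not alter, 166 genes lay below Mir155 and 149 above it, so that it stood near the middle. Only 63 genes had a higher ratio than Mir146. The median log2 ratio over all detected genes was 0.05, and it became 0.18 when library totals were used for scaling. Mir146b was not tested for lack of counts, and its log2 ratio of 1.08 has an exact 95% interval from -1.53 to 4.47.

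**Figure D3:**
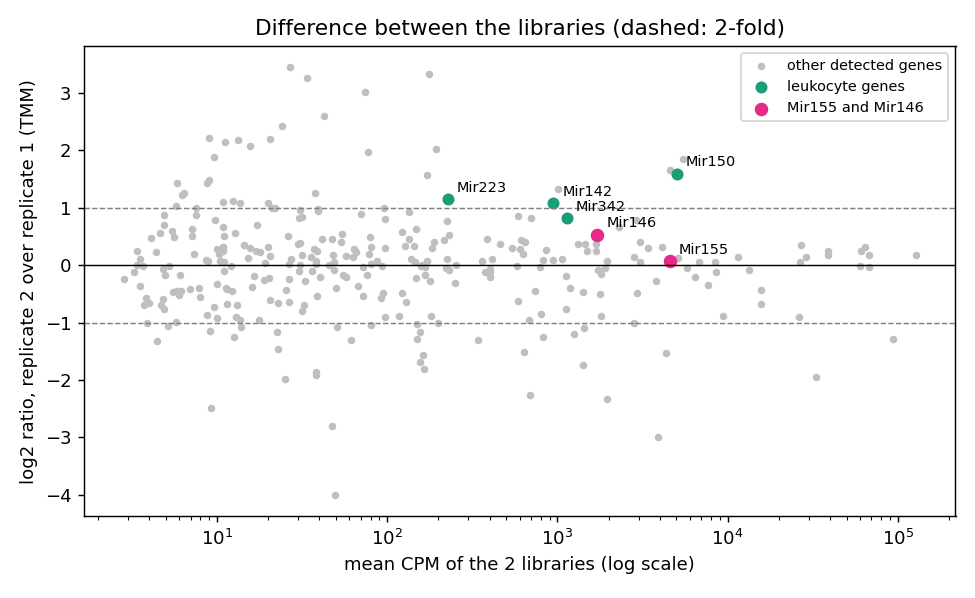
Log2 ratio of replicate 2 over replicate 1 after TMM scaling against mean CPM (log scale) for the 316 detected genes, with dashed lines at 2-fold. Mir155 lies at 0.07, close to the median of 0.05, Mir146 lies at 0.54, and the leukocyte genes (green) lie between 0.83 and 1.60.

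Leukocyte genes were further apart between the libraries than Mir155 or Mir146. The list held Mir150, known from mature lymphocytes, Mir142, found across blood cells, Mir223, known from neutrophils and monocytes, and Mir342, also expressed in lymphoid cells. Their summed levels were 3825 and 10883 CPM in replicates 1 and 2, and none was at 0. The 4 of 4 were called higher in replicate 2 (33.2% of all detected genes were) and 3 were higher there by 2-fold or more (10.4% of all), with a median log2 ratio of 1.12 beside 0.05 over all detected genes. Mir150 had 2345 CPM in replicate 1 and 7737 CPM in replicate 2, a log2 ratio of 1.60. The corresponding levels were 133 and 322 CPM for Mir223 (1.15), 570 and 1323 CPM for Mir142 (1.09) and 776 and 1501 CPM for Mir342 (0.83). In whole tissue, more cells of a type and more microRNA per cell cannot be told apart. The summed level of the leukocyte genes was higher in the same library as Mir146, and its part in the difference of Mir146 was not tested.

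Ratios of counts within a library need no scaling between libraries. Whether counts of different microRNAs reflect their amounts equally was not tested. The ratio of Mir155 to Mir150 was 1.82 in replicate 1 (exact 95% interval 1.77 to 1.87) but 0.631 in replicate 2 (0.619 to 0.643), so that a different gene of the pair was the higher in each library. Against Mir142 the ratio was 7.48 (7.13 to 7.85) in replicate 1 and 3.69 (3.58 to 3.81) in replicate 2. Against Mir223 it was 32.1 (29.2 to 35.3) and 15.1 (14.3 to 16.1), and against Mir342 it was 5.50 (5.27 to 5.73) and 3.25 (3.16 to 3.35). Hairpins differ in length, from 64 nt for Mir142 to 110 nt for Mir223, but these are ratios of counts, not divided by hairpin length. Divided as replicate 2 over replicate 1, the 4 ratios gave factors of 0.347 (exact 95% interval 0.335 to 0.359), 0.493 (0.466 to 0.523), 0.472 (0.422 to 0.528) and 0.592 (0.562 to 0.623). Each interval lies below 1, so the ratio of replicate 2 over replicate 1 was lower for Mir155 than for each of the 4 leukocyte genes beyond counting error.

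Mir146 differed from the leukocyte genes by less. Its ratio to Mir342 was 1.71 in replicate 1 (exact 95% interval 1.63 to 1.80) and 1.40 in replicate 2 (1.35 to 1.45). The ratio was 2.33 and 1.59 against Mir142, 9.998 and 6.51 against Mir223, and 0.567 and 0.271 against Mir150. Replicate 2 over replicate 1, these ratios gave factors of 0.817 (0.769 to 0.867) for Mir342, 0.681 (0.638 to 0.727) for Mir142, 0.651 (0.580 to 0.731) for Mir223 and 0.479 (0.458 to 0.5005) for Mir150. All 4 intervals lay below 1. That the factors lie nearer to 1 than those of Mir155 follows from the ratio of Mir155 to Mir146 given above.

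**Figure D4:**
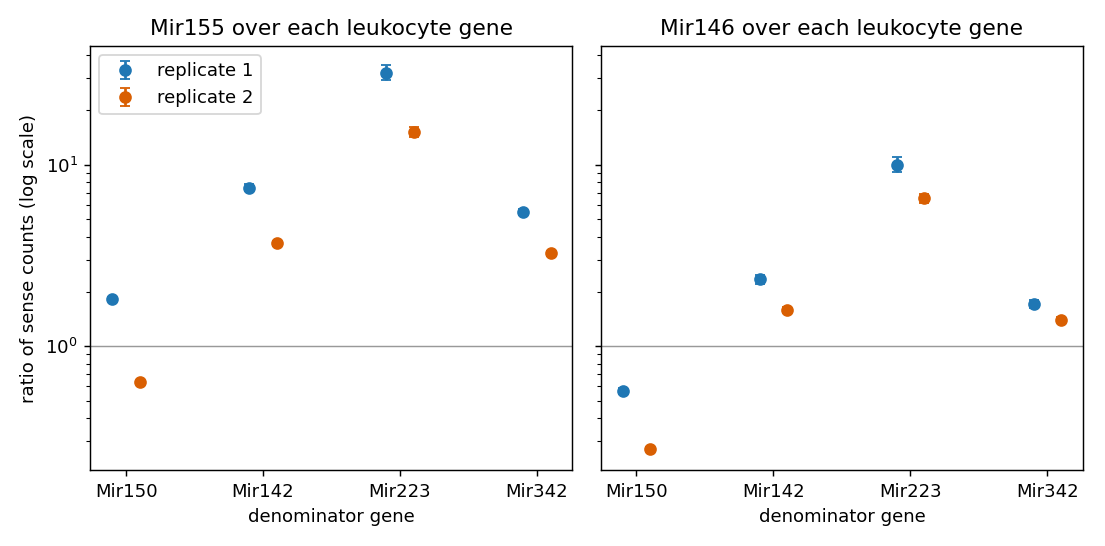
Sense counts of Mir155 (left) and Mir146 (right) divided by those of each leukocyte gene, on a log scale, with exact 95% intervals for replicate 1 (blue) and replicate 2 (orange). Each ratio is lower in replicate 2, and that of Mir155 to Mir150 is 1.82 in replicate 1 and 0.631 in replicate 2.

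Markers of other cells differed between the libraries in both directions. The erythroid genes Mir451a, Mir144 and Mir486, none at 0, summed to 4182 and 1938 CPM. Of this, 1372 and 880 CPM came from Mir486, whose hairpin has a run in common with Mir3107, so its counts are uncertain. The endothelial gene Mir126a had 129043 and 57714 CPM, and the smooth muscle genes Mir143 and Mir145a summed to 35639 and 50822 CPM. Fibroblast genes summed to 5231 and 4470 CPM, but members went opposite ways: Mir214 had 3217 and 695 CPM (log2 ratio -2.33) and Mir21a 2002 and 3756 CPM (0.78), and over the 4 detected genes the log2 ratio had a median of 0.30. Mir199a-1 was at 0, and the 3 Mir199 hairpins have runs in common, so their counts are uncertain. Their part in the values of Mir155 and Mir146 was not tested.

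Other microRNAs known from inflammation were called in both directions, and whether their shares differ from those of all detected genes was not tested. Of 16 listed genes 13 were detected, of which 6 were called higher in replicate 2, 4 higher in replicate 1 and 3 were not called, beside 33.2% and 27.2% of all detected genes called higher in replicates 2 and 1. Their median log2 ratio was 0.06, beside 0.05 over all detected genes. With DESeq2 size factors 5 were called higher in replicate 2 and 4 in replicate 1, beside 93 and 94 of all 316 detected genes. With library totals 6 were called higher in replicate 2 and 2 in replicate 1, beside 128 and 70 of all 316. A difference of 2-fold or more was found for Mir223, higher in replicate 2, and for Mir125b-1, higher in replicate 1 (log2 ratio -1.31), whose hairpin has a run in common with Mir125b-2. The members at the highest levels were Mir125a (9357 ± 3376 CPM), Mir99b (8584 ± 45.3 CPM) and Mirlet7e (6774 ± 593 CPM), which come from 1 cluster, then Mir21a (2879 ± 1241 CPM), known from fibroblasts and macrophages, and Mir221 (2285 ± 861 CPM), known from vessel wall cells (n = 2 each). Mir21a was higher in replicate 2 with a log2 ratio of 0.78 and Mir221 with one of 0.66, beside 0.54 for Mir146. Mir147, induced by Toll-like receptors in macrophages, had 31 and 25 counts and was not called. Mir132, which responds to CREB, had 1360 and 1480 counts, or 401.9 and 402.6 CPM, and was called higher in replicate 1 (log2 ratio -0.12). Mir99b, with 8552 and 8616 CPM, was called higher in replicate 1 too (-0.11). In CPM neither was higher in replicate 1, so the direction of both calls depends on the scaling. The Mir9-1, Mir9-2 and Mir9-3 hairpins have runs of 20 nt or more in common, so their counts of 0, 0 and 3 in each library give no level of miR-9.

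The detected genes nearest to each of the 3 were found by the distance of the log2 CPM values in the 2 libraries, a description that rests on 2 points per gene. Nearest to Mir155 were Mir93 (4709 and 5571 CPM), Mir151 (3473 and 4722 CPM) and the cardiomyocyte gene Mir499 (3977 and 3567 CPM), at distances of 0.24, 0.30 and 0.46 on the log2 scale. Mir10a (1310 and 2030 CPM), Mir130a (1408 and 1984 CPM) and Mir361 (1478 and 1905 CPM) were nearest to Mir146, at 0.05, 0.12 and 0.21. Mir146b had no close neighbour among detected genes, Mir7019 being the nearest at 2.53.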

How the data were processed

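MicroRNA-seq was done on total RNA of 2 heart libraries. The values the authors deposited are raw counts of reads by microRNA gene, without a header, for reads on either strand, the sense strand and the antisense strand (column meaning taken from the values). The assembly (mm10) and annotation (GENCODE M21) are given in the deposited readme text. Names of the aligner and counter were not given in the sources used here. The 4 rows that are no genes were kept out of totals and tests: unmapped, multimapping, featureless and ambiguous reads made up 14.9%, 43.9%, 5.07% and 0% of replicate 1 and 16.2%, 43.2%, 5.75% and 0% of replicate 2. An effect of CAST/EiJ variants on counts made on mm10 was not tested.

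Symbols and positions came from GENCODE M21, sequences from RefSeq (GRCm38.p6), which held all 3 genes. CPM was computed on sense gene counts. Libraries were compared by a two-sided exact binomial test on TMM effective library sizes (edgeR 4.0.16), with Benjamini-Hochberg adjustment over genes with 10 counts or more in each library. Alternatives used DESeq2 1.42.0 size factors, library totals, the either-strand column, minima of 1 and 100 counts, thinning, other denominators, hairpin length and each library alone. Ratios of ratios have exact conditional intervals. Scripts ran in Python 3.11.15 (scipy 1.17.1, pandas 2.3.3, matplotlib 3.10.9, numpy 2.4.6) and R 4.3.3. The genes named are Mir155, Mir146 and Mir146b, the 3 detected genes nearest to each, the 5 highest of the inflammation list, the leukocyte and cell type lists, and genes with a shared run or seed. Neighbours in rank, Mir142b and the other inflammation genes named were added once values had been seen. The genes described and the lists were chosen with earlier results of these data known.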

Additional observations from a re-analysis of the deposited data

How the results depend on the processing

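Levels depend on the denominator. With the either-strand column, in which genes with an antisense partner lose counts, the mean level was 6113 CPM for Mir155 and 2282 CPM for Mir146, their share with Mir146b was 0.840%, and Mir155 ranked 24. Per 1000000 of all reads the levels were 1622 for Mir155, 606 for Mir146 and 0.344 for Mir146b, and the share was 0.223%. Per nucleotide of hairpin, Mir146 stood at 3180 times Mir146b, a value that also reflects the annotated hairpin lengths. Mir155 ranked 29 to 30 when either library was left out, and ratios between the libraries need both. The ratio of Mir155 to Mir142 has no value in the either-strand column, where Mir142 is at 0. The log2 ratio of Mir155 stayed above 0 under all 6 alternatives, between 0.016 and 0.19. It was not called with DESeq2 size factors (0.016) or at 100 counts or more (0.028). The counts of Mir155 were the same there as in the main setting, and the scaling between the libraries differed. The log2 ratio of Mir146 lay between 0.48 and 0.66 and was called under all 6. Genes past 2-fold numbered 342 of 708 at 1 count or more in either library and 32 of 181 at 100 counts or more in each. These are different sets of genes, and the first admits genes with 0 counts in 1 library, which count as past 2-fold. No paired analysis was possible because the libraries form 1 group. Depth limits Mir146b, whose 2 and 5 counts allow no statement on a difference between the libraries.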
